A study of Mus musculus with 24 samples.

Results

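Lysosomes and autophagy were followed through 36 listed genes: 13 soluble hydrolases of the lysosome, 7 genes of its membrane and lipid handling, 5 members of the Atg8 family, 7 genes of autophagy initiation and conjugation, 3 receptors and the factor Tfeb. The listed genes were matched to the probe sets annotated to them. Of the 36 genes, 34 had at least 1 probe set of their own, 64 in all, and 61 probe sets of these 34 genes passed the minimum intensity, of 19294 probe sets and 11098 genes tested on the whole array. Cd63 has no probe set in the annotation used, and the 3 probe sets of Bnip3l are shared with its pseudogene entry, so both genes were left without a value. The 3 probe sets below the minimum belong to Gla, Atg3 and Atg12. A further 13 probe sets passed the minimum only through the Bcl3-/- arrays, which lie on a higher scale, so 48 probe sets of 31 genes would have passed on the wild type and Nfkb1-/- arrays alone.

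RNA came from the gastrocnemius and plantaris muscles of 6-week-old male mice that bore weight (WB) or had their hind limbs unloaded by the tail for 6 days (HU), a model of disuse atrophy. Wild type mice were of the strain B6129PF2/J, Nfkb1-/- mice of B6;129P2-Nfkb1tm1Bal/J and Bcl3-/- mice of FVB;129P2-Bcl3tm1Ver/J. Nfkb1 codes for p105 and the p50 subunit of NF-κB, and Bcl3 for the nuclear co-activator Bcl-3 that binds p50 dimers; both deletions are of the germ line and so are not limited to muscle. Each of the 6 groups held 4 arrays, 1 mouse each, and 4 mice per group set the precision of the values below. The study asked which genes need p50 or Bcl-3 to respond to unloading. The median intensity of an array was 11.6 to 11.9 for the first 2 genotypes but 81.1 to 86.8 for Bcl3-/- mice, so WB Bcl3-/- and wild type levels were not compared. The sample labels name no run. A run below means arrays of 1 scale, either those of Bcl3-/- mice or those of the first 2 genotypes. Scale, strain background and genotype cannot be told apart there. Wild type and Nfkb1-/- mice differ in strain as well, so strain background and deletion cannot be told apart in any difference between them. The 11 measured muscle fibre markers were above 20 on all 24 arrays. Nfkb1 has no probe set in the annotation used and the probe set of Bcl3 lies on these unequal scales, so neither deletion was checked. The RNA is from whole muscle, in which fewer cells of a type and less RNA per cell cannot be told apart. An alternative fit left out 3 arrays judged far from their groups: wild type HU array 1, wild type WB array 4 and Bcl3-/- WB array 2. Their correlations with the mean of the other arrays of the group were 0.9919, 0.9925 and 0.9843. Bcl3-/- WB array 4 (0.9905) lay farther than the first 2 and was kept. The set was chosen after seeing the data and is not that of the 3 farthest arrays. Without the 3 arrays left out, 1 of the 61 member probe sets was called with unloading for wild type, 19 for Nfkb1-/- and 6 for Bcl3-/- mice.

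Autophagy encloses cytoplasm in a double membrane and delivers it to the lysosome. The Ulk1 kinase complex, with its scaffold Rb1cc1 (FIP200), starts the process, Becn1 belongs to the lipid kinase complex that follows, and Atg3, Atg5, Atg7 and Atg12 attach Atg8 family proteins (LC3 and GABARAP proteins) to the growing membrane. Receptors such as Sqstm1 (p62) and Bnip3 link cargo to Atg8 proteins, and cathepsins and other acid hydrolases digest it in the lysosome. In skeletal muscle this pathway is known to remove proteins and mitochondria in wasting, with FoxO factors as known activators of its genes, and Tfeb is known to drive lysosomal genes through sequences that hold the E-box CACGTG.

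Promoter windows of 250 bases before a start site (RefSeq, GRCm38.p6) were found for 28 of the 36 genes, 32 windows in all, and are shown first because the list joins genes of one organelle. Both strands were searched. The E-box CACGTG lay in windows of 9 member genes (Atg3, Atg5, Atg7, Bnip3, Ctsa, Ctsd, Ctsl, Gla and Lamp1), 9 of 32 windows or 28.1%, and in 6.02% of all 32851 windows. Its longer form TCACGTGA, which contains the E-box, lay in windows of Atg3, Ctsa, Ctsd and Gla, 12.5% of member windows and 0.785% of all. The 4 genes with the longer form, Lamp1 and the 2 E-box genes that passed a test below are given here, 5′ to 3′ on the strand of the gene, with the E-box in capitals.
Atg3 (chr16:45158748-45158773, plus strand): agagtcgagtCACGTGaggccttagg
Ctsa (chr2:164833751-164833772, plus strand): agcaaactgtCACGTGatgcag
Ctsd (chr7:142387910-142387935, minus strand): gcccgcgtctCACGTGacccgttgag
Gla (chrX:134601184-134601209, minus strand): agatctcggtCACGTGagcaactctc
Lamp1 (chr8:13159136-13159160, plus strand): gtgaccacatCACGTGcggaacgga
Bnip3 (chr7:138909599-138909624, minus strand): gcacgcgccgCACGTGccacacgctc
Ctsl (chr13:64370741-64370766, minus strand): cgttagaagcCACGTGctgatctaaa
The window of Lamp1 held 4 E-boxes, and those of Atg3, Ctsd and Gla held 2 each, of which 1 is shown. The windows of Ctsa, Ctsl and Atg7 precede a start site that lies inside the annotated gene. The FoxO motif GTAAACA was in no member window, against 3.17% of all windows, and the κB motif was in those of Neu1, Psap and Sqstm1 (9.38% of member windows and 7.25% of all). A match of letters is a description of the window and not a binding site, and no match says nothing of the factor.

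Unloading raised 4 of the 61 member probe sets in wild type muscle and lowered 0, or 6.56% called, beside 3.97% of all probe sets tested (2.31% higher and 1.66% lower). Nfkb1-/- muscle had 14 members higher and 1 lower, or 23% and 1.64%, beside 4.79% of all higher and 6.59% lower (11.4% in either direction). Bcl3-/- muscle had 6 higher and 2 lower, or 9.84% and 3.28%, beside 7.59% and 2.81% of all (10.4% in either direction). A call is a Benjamini-Hochberg adjusted p under 0.05 in the fit of limma over all probe sets, and changes are differences of log2 intensity, HU minus WB, with standard errors (SE). The shares in wild type and Bcl3-/- muscle lie near those of all probe sets, and the higher share in Nfkb1-/- muscle stands farthest above its background. The members and that background are not alike in intensity. On the wild type and Nfkb1-/- arrays alone 48 of the 61 member probe sets pass the minimum, but only 9722 of the 19294. With the minimum applied there the excess was smaller, at 16 of 48 called in either direction beside 24.1% of all.

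A gene with several probe sets was counted by the one of highest mean intensity. In this way 2 of 34 genes were higher in wild type muscle (Map1lc3a and Ctsl), where 2.18% of all genes were higher, 1.75% lower and 3.93% either. For Nfkb1-/- muscle 8 genes were higher and 1 lower, beside 5.22% and 7.02% of all genes (12.2% either). For Bcl3-/- muscle 2 were higher and 2 lower, beside 7.5% and 2.99% (10.5% either). The median log2 change over the 34 genes was 0.05, 0.10 and 0.13 in that order, beside -0.01, -0.00 and 0.01 over all genes. WB and HU arrays did not overlap for 8 member probe sets in the higher and 0 in the lower direction in wild type (13.1% and 0%, beside 5.86% and 4.89% of all). The same held for 17 and 3 in Nfkb1-/- (27.9% and 4.92%, beside 7.71% and 10.9%) and for 11 and 2 in Bcl3-/- muscle (18% and 3.28%, beside 11.4% and 4.07%). With the minimum intensity applied within the wild type and Nfkb1-/- arrays alone, 5 of 48 member probe sets were called in wild type muscle and 16 of 48 in Nfkb1-/- muscle, beside 8.93% and 24.1% of all probe sets in that fit. Of the 14 higher calls in Nfkb1-/- muscle 1, of Map1lc3b 1428024_at, is of a probe set below the minimum on those arrays. Another of the 14, Ulk1 1416504_at, passed the minimum there only through HU arrays and is also counted in the 16 of 48.

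In a fit of the wild type groups alone none of the 4 wild type calls was made, with 1.31% of all probe sets called, and the limma adjusted p of Ctsl was 0.054 there. Without the 3 arrays far from their groups the wild type call of Ctsl was kept and those of Map1lc3a, Map1lc3b and Lamp2 were lost. In fits of only the groups compared 10 of the 61 were called for Nfkb1-/- and 5 for Bcl3-/- mice, beside 11.4% and 5.4% of all. The study named Ctsl, Ctss, Map1lc3a and Lamp2 from these same arrays, so their calls are not independent evidence. It listed Ctsl and Ctss as targets of p50 and Bcl-3, raised by unloading in wild type mice but not in either knockout. Its array calls used q-values and a filter on the variation of each probe set, not limma. For Ctsl it added qPCR and ChIP. By qPCR the study reported that the rise of Ctsl with unloading was absent or significantly smaller in both knockouts. In the ChIP, Bcl-3 binding to a κB site increased. On the arrays, Ctsl was called here by limma in Nfkb1-/- muscle too and Map1lc3a in every genotype. Why the array values of Ctsl in Nfkb1-/- muscle differ from that qPCR result was not tested. By limma Ctss was called in no unloading contrast, although all its wild type HU arrays lay above the WB arrays (log2 fold change 0.66). In 21 of the 34 genes no probe set was called in any genotype's response or between the WB groups; their log2 changes with unloading, counted as above, lay between -0.28 (Ctsa in Nfkb1-/-) and 0.39 (Gusb in Bcl3-/-). These are Ctsa, Ctsb, Ctsc, Ctsd, Ctsz, Gla, Hexa, Gusb, Neu1, Lamp1, Laptm4a, Npc2, Psap, Gabarap, Gabarapl2, Atg3, Atg5, Atg7, Atg12, Sqstm1 and Tfeb.

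**Figure D1:**
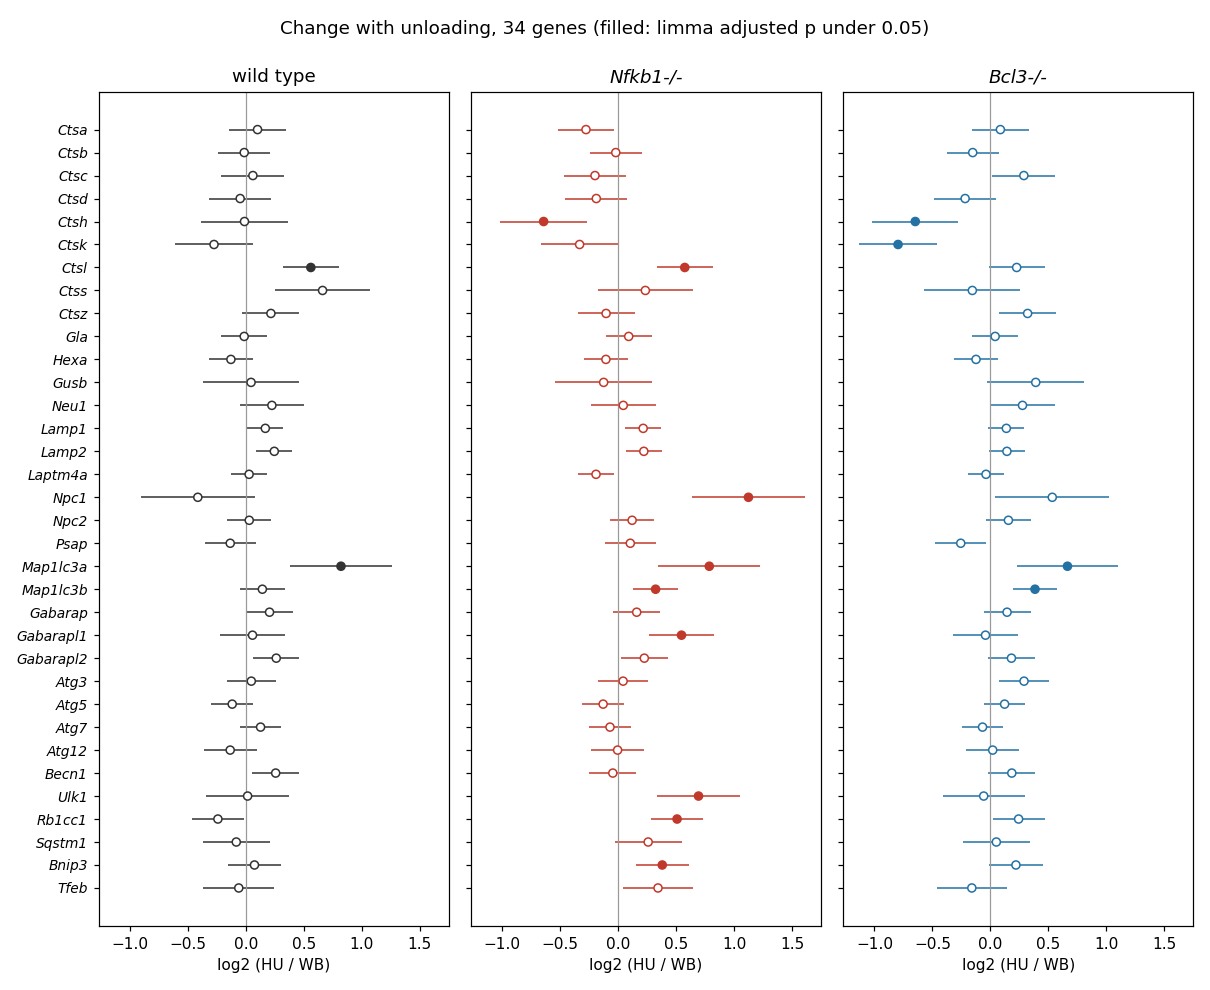
Log2 change with unloading (HU over WB, x axis) of the 34 measured genes, 1 probe set each, in wild type, Nfkb1-/- and Bcl3-/- muscle (4 against 4 arrays each). Points are limma estimates, lines 95% confidence intervals and filled points calls; 2, 9 and 4 points are filled, Map1lc3a in each panel.

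Of the initiation genes, Ulk1 rose in Nfkb1-/- muscle by 1448370_at, and by a second probe set that lay below the minimum intensity in WB mice of that genotype. Ulk1 1448370_at read 78.9, 90.3, 99.3 and 83.4 on the WB arrays and 129, 166, 173 and 108 on the HU arrays. All 4 HU arrays lay above all WB arrays (log2 fold change 0.69, SE 0.17, adjusted p = 0.0098). The other probe set of Ulk1, 1416504_at, read 14.1, 15.1, 16.8 and 15.6 against 19.9, 29.9, 28.2 and 20.2, again without overlap (log2 fold change 0.65, SE 0.14, adjusted p = 0.0040). Its WB arrays lay below the minimum of 20 in Nfkb1-/- and in wild type mice, where the highest read 18.3. Among the arrays of these genotypes it passed the minimum only through HU arrays, so it is not separate support for the rise. Both calls were kept when any 1 array was left out. Wild type arrays gave 1448370_at values of 86.9, 89.7, 91.3 and 86.7 in WB and 78.0, 73.4, 107 and 105 in HU mice. Here the HU arrays lay on both sides of the WB arrays, with a log2 change of 0.01 (95% confidence interval -0.34 to 0.37, adjusted p = 0.98). Bcl3-/- arrays read 685, 742, 426 and 428 in WB and 549, 604, 532 and 447 in HU mice, with the groups interleaved at -0.06 (95% confidence interval -0.41 to 0.30, adjusted p = 0.87). The wild type response minus that of Nfkb1-/- was -0.68 (SE 0.24, adjusted p = 0.25) for 1448370_at and -0.53 (SE 0.20, adjusted p = 0.28) for 1416504_at, so the difference between genotypes did not pass the test.

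Rb1cc1, the scaffold of the Ulk1 complex, was the 1 member whose response differed between wild type and Nfkb1-/- muscle. Its probe set 1418968_at read 108, 112, 105 and 104 in WB and 77.6, 95.5, 106 and 86.2 in HU wild type muscle. Nfkb1-/- arrays read 90.2, 102, 108 and 93.4 in WB and 122, 157, 166 and 120.2 in HU mice. The HU arrays were mostly below the WB arrays in wild type and all above them in Nfkb1-/- muscle. The log2 change was -0.24 (SE 0.11, adjusted p = 0.23) in wild type, not a call, and 0.51 (SE 0.11, adjusted p = 0.0032) in Nfkb1-/- muscle. The difference of the responses, wild type minus Nfkb1-/-, was -0.75 (SE 0.15, adjusted p = 0.037); it is 1 of 61 member probe sets (1.64%), beside 0.176% of all (0.119% higher, 0.057% lower) and 0.207% of all genes (0.135% higher, 0.0721% lower). It was not called in a fit within its own run, in a fit of the groups compared or without the 3 arrays far from their groups (adjusted p 0.052 to 0.088), and it was lost without any 1 of Nfkb1-/- HU arrays 2 and 3, Nfkb1-/- WB arrays 1, 2 and 4, wild type HU arrays 1 and 4, wild type WB arrays 1, 2, 3 and 4 (log2 fold change -0.77 to -0.67, adjusted p 0.054 to 0.11). The 1 member called in this contrast without those 3 arrays was Npc1. The other probe set, 1449292_at, was not called in that contrast (log2 fold change -0.19, SE 0.29, adjusted p = 0.85).

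The probe sets of Rb1cc1 gave different calls in Bcl3-/- muscle. Rb1cc1 1418968_at read 543, 593, 523 and 490.0 in WB and 683, 614, 579.9 and 666 in HU mice, a change of 0.24 (SE 0.11, adjusted p = 0.16). Rb1cc1 1449292_at read 20.7, 40.3, 51.9 and 35.9 in WB and 48.1, 57.3, 64.4 and 54.8 in HU mice and was called (log2 fold change 0.66, SE 0.21, adjusted p = 0.043), although 1 WB array lay within the HU range. This call was lost without any 1 of HU arrays 1, 2, 3 and 4 and WB arrays 1, 2 and 4 (log2 fold change 0.40 to 0.73, adjusted p 0.052 to 0.16). The same call ended in a fit within its own run, in a fit of the groups compared and without the 3 arrays far from their groups (adjusted p 0.055 to 0.13).

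Becn1, a subunit of the lipid kinase complex, has 4 probe sets, of which 1 was called. On Bcl3-/- arrays Becn1 1460320_at read 987, 812, 1092 and 885 in WB and 1184, 1181, 1095 and 1202 in HU mice. The HU arrays lay just above the WB arrays (log2 fold change 0.31, SE 0.09, adjusted p = 0.030). This call was lost without any 1 of HU arrays 1, 2 and 4 and WB arrays 2 and 4 (log2 fold change 0.24 to 0.31, adjusted p 0.061 to 0.10). It was also lost in a fit within its own run, in a fit of the groups compared, with array weights and without the 3 arrays far from their groups (adjusted p 0.091 to 0.11). The other probe sets of Becn1 changed there by 0.12 to 0.22, none of them called. In wild type and Nfkb1-/- muscle 1460320_at changed by 0.18 (SE 0.09, adjusted p = 0.29) and 0.25 (SE 0.09, adjusted p = 0.073). The probe sets 1435219_x_at and 1437006_x_at stayed under 11 on all wild type and Nfkb1-/- arrays, below the minimum intensity.

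The conjugation genes gave no call in any contrast. Atg3, the enzyme that transfers Atg8 proteins to lipid, showed log2 changes of 0.05 (SE 0.10, adjusted p = 0.87) for wild type, 0.04 (SE 0.10, adjusted p = 0.87) for Nfkb1-/- and 0.29 (SE 0.10, adjusted p = 0.073) for Bcl3-/- muscle. Atg5 1415684_at changed by -0.12, -0.13 and 0.12, and Atg12 1451747_a_at, whose protein is joined to Atg5, by -0.14, -0.01 and 0.02. For Atg7, the activating enzyme, all 3 probe sets stayed under 15 on the wild type and Nfkb1-/- arrays, below the minimum intensity.

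Over the 3 genotypes the Atg8 family held more calls than any other group of members, as 2 of its 9 probe sets were higher with unloading for wild type, 7 for Nfkb1-/- and 3 for Bcl3-/- mice, and 0 were lower. Over the 8 of these probe sets that pass the minimum on the wild type and Nfkb1-/- arrays alone the counts were 2, 6 and 3. Of all probe sets tested, 2.31%, 4.79% and 7.59% were higher in the same order. The 2 LC3 genes and Gabarapl1 gave these calls, and Gabarap and Gabarapl2 gave none. For comparison, promoter windows of 3 rising genes are printed here outside the annotated gene and with GC boxes (GGGCGG on either strand) in capitals; a GC box is in 62.5% of member windows and 32.7% of all windows, and these 3 stretches hold no E-box, no κB motif and no GTAAACA.
Map1lc3b (chr8:121590188-121590437, plus strand): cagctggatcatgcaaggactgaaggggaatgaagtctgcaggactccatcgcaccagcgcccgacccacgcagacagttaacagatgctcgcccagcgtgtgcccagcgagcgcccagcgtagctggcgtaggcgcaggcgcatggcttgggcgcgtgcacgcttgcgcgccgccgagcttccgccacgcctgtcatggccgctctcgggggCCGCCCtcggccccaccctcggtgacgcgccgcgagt
Gabarapl1 (chr6:129532942-129533191, plus strand): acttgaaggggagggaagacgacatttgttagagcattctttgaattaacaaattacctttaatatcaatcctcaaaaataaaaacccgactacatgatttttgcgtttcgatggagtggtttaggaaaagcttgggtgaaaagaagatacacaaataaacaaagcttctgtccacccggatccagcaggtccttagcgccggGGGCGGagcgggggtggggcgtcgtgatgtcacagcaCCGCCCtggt
Ulk1 (chr5:110810121-110810331, minus strand): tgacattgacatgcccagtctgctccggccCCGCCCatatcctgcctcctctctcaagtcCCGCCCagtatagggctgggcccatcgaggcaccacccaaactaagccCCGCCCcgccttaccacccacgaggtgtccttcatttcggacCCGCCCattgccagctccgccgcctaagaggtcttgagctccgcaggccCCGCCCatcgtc
The windows of Map1lc3b and Gabarapl1 hold 1 and 2 GC boxes, and the 211 bases of Ulk1 hold 5.

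Map1lc3a, an LC3 gene, was the 1 probe set among 61 that was called higher in all 3 genotypes. Wild type WB arrays read 220.2, 214, 189.5 and 126 and HU arrays 525, 206, 312 and 324. HU array 2 lay within the WB range and the other 3 HU arrays above it (log2 fold change 0.82, SE 0.21, adjusted p = 0.028). Nfkb1-/- arrays read 136, 164, 185 and 130.1 in WB and 275, 249, 206 and 336 in HU mice, with no overlap (log2 fold change 0.79, SE 0.21, adjusted p = 0.017). The Bcl3-/- values were 2722, 3165, 2652 and 2066 in WB and 3589, 4462, 4440.4 and 4186 in HU mice, also apart (log2 fold change 0.66, SE 0.21, adjusted p = 0.046). The responses were 1.76-fold, 1.72-fold and 1.58-fold, and the differences, wild type minus knockout on the log2 scale, were 0.03 (95% confidence interval -0.59 to 0.65, adjusted p = 0.98) for Nfkb1-/- and 0.16 (95% confidence interval -0.47 to 0.78, adjusted p = 0.88) for Bcl3-/-. The wild type call was lost without any 1 of HU arrays 1, 3 and 4 and WB arrays 3 and 4 (log2 fold change 0.59 to 0.84, adjusted p 0.054 to 0.11). The Nfkb1-/- call was lost without any 1 of HU array 4 and WB arrays 1 and 4 (log2 fold change 0.67 to 0.73, adjusted p 0.056 to 0.065). The Bcl3-/- call was lost without any 1 of HU arrays 1, 2, 3 and 4 and WB arrays 1, 3 and 4 (log2 fold change 0.55 to 0.73, adjusted p 0.062 to 0.13), and it was also lost with no filter and after quantile normalization again within each run (adjusted p 0.052 to 0.059).

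Map1lc3b, the LC3 gene whose protein is the common marker of autophagosomes, rose in Nfkb1-/- muscle by each of the 3 probe sets above the minimum intensity there. The first, 1415928_a_at, read 547, 525, 638 and 579.6 in WB and 711, 851, 660.4 and 652 in HU Nfkb1-/- mice. Every HU array exceeded every WB array (log2 fold change 0.32, SE 0.09, adjusted p = 0.024). The others gave log2 changes of 0.37 (SE 0.10, adjusted p = 0.016) for 1415929_at and 0.40 (SE 0.12, adjusted p = 0.032) for 1415930_a_at. The fourth, 1428024_at, stayed under 12 on all wild type and Nfkb1-/- arrays and was tested only because the Bcl3-/- arrays passed the minimum, so its value there, 0.61 (SE 0.10, adjusted p = 0.00066), is not counted with the others. The call of 1415928_a_at was lost without any 1 of HU array 2 and WB arrays 1, 2 and 4 (log2 fold change 0.24 to 0.33, adjusted p 0.053 to 0.12). That of 1415929_at was lost without any 1 of HU array 2 and WB array 2 (log2 fold change 0.29 to 0.34, adjusted p 0.057 to 0.077), and that of 1415930_a_at was lost without any 1 of HU arrays 2 and 3 and WB arrays 1, 2 and 4 (log2 fold change 0.25 to 0.41, adjusted p 0.055 to 0.15). The first was also lost in a fit of the groups compared (adjusted p = 0.070), and 1415930_a_at likewise in a fit of the groups compared (adjusted p = 0.082).

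In wild type muscle 1 probe set of Map1lc3b passed, and in Bcl3-/- muscle 2. Wild type 1415930_a_at read 474, 499, 482 and 447 in WB and 677, 515, 724 and 699.7 in HU mice (log2 fold change 0.45, SE 0.12, adjusted p = 0.031). The groups were apart by a small gap at HU array 2, and the call was lost without any 1 of HU arrays 1, 3 and 4 and WB arrays 1, 2, 3 and 4 (log2 fold change 0.40 to 0.47, adjusted p 0.055 to 0.11). The other 3 probe sets changed by 0.04 to 0.14 in wild type muscle; for 1415928_a_at the WB arrays read 594, 579, 517 and 581 and the HU arrays 585, 585, 674 and 663. On Bcl3-/- arrays 1415928_a_at read 2727, 3040.3, 2882 and 3246 in WB and 3807, 4114, 4047 and 3549 in HU mice (log2 fold change 0.38, SE 0.09, adjusted p = 0.010), a call kept without any 1 array. The call of 1415929_at there (log2 fold change 0.31, SE 0.10, adjusted p = 0.049) was lost without any 1 of HU arrays 1, 2 and 3 and WB arrays 2, 3 and 4 (log2 fold change 0.25 to 0.35, adjusted p 0.061 to 0.14). It was also lost with no filter, in a fit within its own run, in a fit of the groups compared, after quantile normalization again within each run and without the 3 arrays far from their groups (adjusted p 0.052 to 0.11). The probe set 1428024_at changed by -0.20 (SE 0.10, adjusted p = 0.24), opposite in sign to the others. No probe set of Map1lc3b passed the test of a difference between genotypes.

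Gabarapl1, the only GABARAP-type member with a call, rose in Nfkb1-/- muscle by both probe sets. Gabarapl1 1416419_s_at read 88.0, 85.3, 107 and 101 in WB and 104, 175, 176 and 115 in HU mice. HU arrays 2 and 3 stood far above the rest, and HU array 1 lay within the WB range (log2 fold change 0.55, SE 0.14, adjusted p = 0.0098). This call was lost without HU array 2 (log2 fold change 0.43, adjusted p = 0.051). It was also lost in a fit of the groups compared (adjusted p = 0.064). Gabarapl1 1416418_at read 43.3, 37.8, 53.6 and 51.8 in WB and 51.5, 98.8, 96.6 and 48.3 in HU mice, with the same 2 arrays high (log2 fold change 0.60, SE 0.19, adjusted p = 0.043). Its call was lost without any 1 of HU arrays 2 and 3 and WB arrays 1, 2 and 4 (log2 fold change 0.43 to 0.65, adjusted p 0.058 to 0.18), and it was lost too in a fit of the groups compared and with 16 added (adjusted p 0.077 to 0.13). On wild type arrays 1416419_s_at read 89.7, 104, 109 and 101 in WB and 98.4, 96.1, 113 and 112 in HU mice. Bcl3-/- arrays read 712, 732, 720.4 and 671 in WB and 662, 744, 765 and 593 in HU mice. Both pairs of groups overlapped, and the log2 changes were 0.06 (95% confidence interval -0.22 to 0.34, adjusted p = 0.88) and -0.04 (95% confidence interval -0.32 to 0.24, adjusted p = 0.88). The difference of the wild type and Nfkb1-/- responses was -0.49 (SE 0.19, adjusted p = 0.30).

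Gabarapl2 and Gabarap were measured by 1 probe set each. For Gabarapl2 the wild type arrays read 268, 264, 269.8 and 227 in WB and 291, 292, 323 and 326 in HU mice, apart but not called (log2 fold change 0.26, SE 0.10, adjusted p = 0.14). In Nfkb1-/- muscle Gabarapl2 read 251, 254, 266 and 269 and 288, 367, 278 and 289.9 (log2 fold change 0.23, SE 0.10, adjusted p = 0.14), and in Bcl3-/- muscle 1293, 1694, 1381 and 1253 and 1471, 1596, 1636 and 1629.8 (log2 fold change 0.18, SE 0.10, adjusted p = 0.24). The estimate was positive in each genotype. For Gabarap the wild type arrays read 283, 311, 314 and 285 and 365, 272, 366 and 381, the Nfkb1-/- arrays 268, 289.7, 302 and 284 and 294, 349.9, 289 and 348, and the Bcl3-/- arrays 2434, 2553, 2336 and 2038 and 2585, 2619, 2566 and 2533, WB first in each. All 3 pairs of groups overlapped, at log2 changes of 0.20 (SE 0.10, adjusted p = 0.27), 0.16 (SE 0.10, adjusted p = 0.35) and 0.14 (SE 0.10, adjusted p = 0.38).

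**Figure D2:**
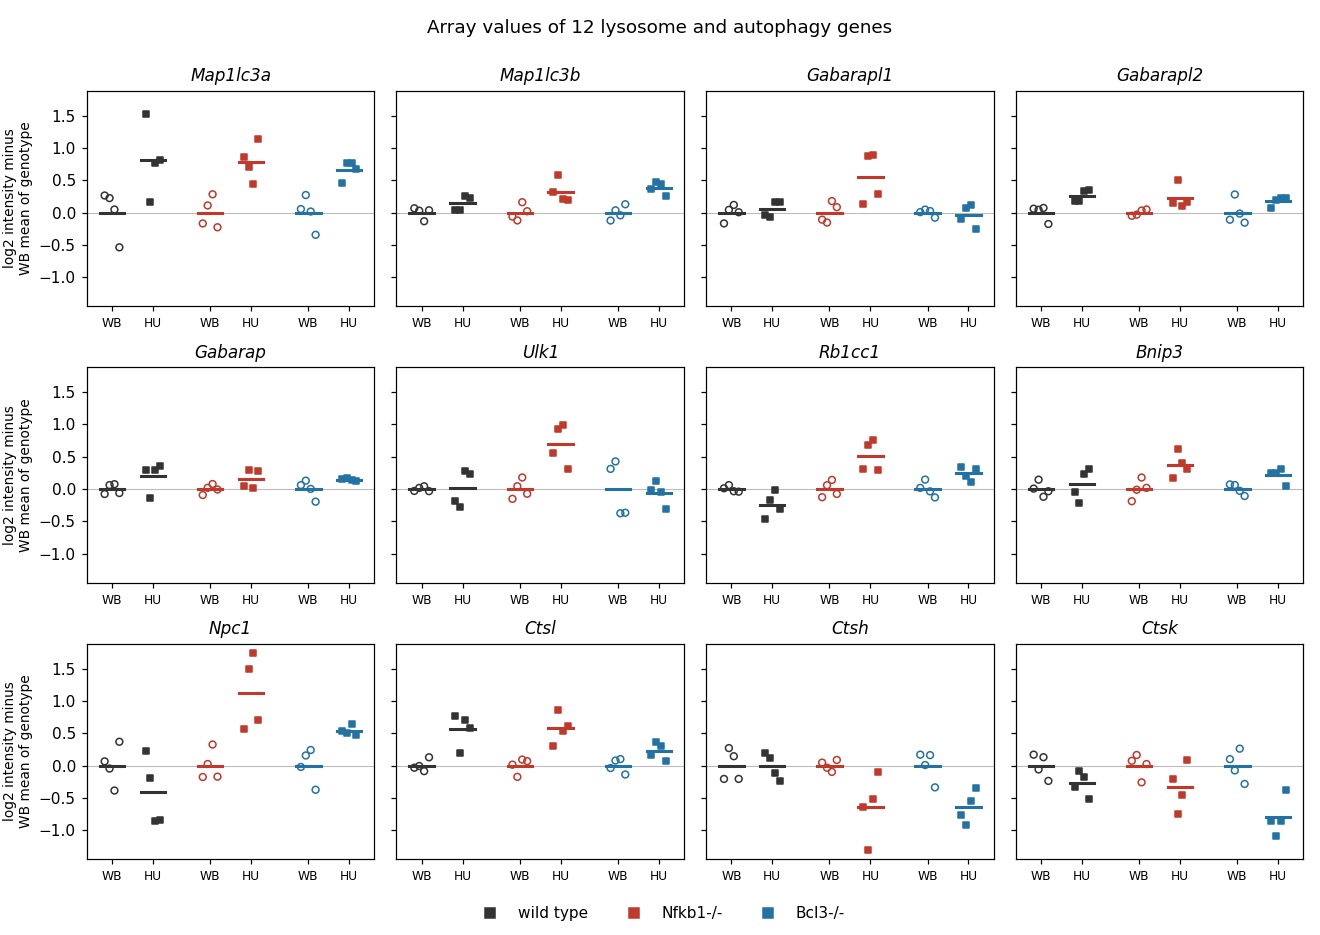
Log2 intensity on each array minus the WB mean of the same genotype (y axis) for 12 members, 1 probe set each; open circles are WB arrays, filled squares HU arrays, and bars group means of 4 arrays. Map1lc3a lay above 0 on all 12 HU arrays, while for Ulk1, Gabarapl1 and Npc1 replicates 2 and 3 were the highest Nfkb1-/- HU arrays.

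The Nfkb1-/- HU arrays were not alike in the rising members. Replicates 2 and 3 held the 2 highest HU values in 9 of the 14 probe sets called higher, which belong to Lamp2, Npc1, Map1lc3b, Gabarapl1, Ulk1, Rb1cc1 and Bnip3. Map1lc3a, Ctsl and the other 3 probe sets of Map1lc3b had another order. Markers of other cell types also differed between these arrays. Replicates 2 and 3 had the lowest summed intensity of the 22 macrophage markers, 766 and 792, beside 956 and 1390.0 for replicates 1 and 4. They also had the lowest sums of the 8 neutrophil markers, 86.0 and 88.6 beside 162 and 149. The 10 endothelial markers were highest on them, at 622 and 555 beside 463 and 443, where the WB arrays ran from 428 to 562. Summed muscle fibre markers ran from 61745 to 63525 over the 4 arrays. The part of these values in the result was not tested.

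Of the receptors, Bnip3, which marks mitochondria for autophagy, rose in Nfkb1-/- muscle. It read 714, 808, 921 and 824 in WB and 920.4, 1255, 1074 and 1012 in HU mice (log2 fold change 0.38, SE 0.11, adjusted p = 0.028). HU array 1 lay just below the highest WB array, and the call was lost without any 1 of HU arrays 2 and 3 and WB arrays 1, 2 and 4 (log2 fold change 0.30 to 0.39, adjusted p 0.060 to 0.12). The call of Bnip3 also ended in a fit of the groups compared (adjusted p = 0.050). On wild type arrays Bnip3 read 823, 905, 754 and 799.7 in WB and 793, 708, 967 and 1015 in HU mice, interleaved. Bcl3-/- arrays read 3920.1, 3895, 3660.0 and 3463 in WB and 4452, 4454, 4637 and 3869.5 in HU mice, with 1 HU array within the WB range. The log2 changes were 0.07 (SE 0.11, adjusted p = 0.80) and 0.22 (SE 0.11, adjusted p = 0.21), and the difference between wild type and Nfkb1-/- was -0.31 (SE 0.16, adjusted p = 0.44). Sqstm1, the p62 receptor, was not called, at -0.08 (SE 0.14, adjusted p = 0.82), 0.26 (SE 0.14, adjusted p = 0.27) and 0.05 (SE 0.14, adjusted p = 0.86) in wild type, Nfkb1-/- and Bcl3-/- muscle.

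Among the membrane and lipid genes, Npc1, the cholesterol exporter of the lysosome, had the largest rise of any member in Nfkb1-/- muscle. Npc1 read 31.8, 36.5, 45.0 and 31.9 on the WB and 53.0, 101, 119.6 and 58.4 on the HU arrays, a 2.18-fold rise (log2 fold change 1.12, SE 0.24, adjusted p = 0.0030). All HU arrays lay above all WB arrays, and the call was kept without any 1 array. Wild type arrays read 29.1, 26.9, 21.3 and 35.9 in WB and 32.6, 24.4, 15.3 and 15.6 in HU mice. HU arrays 3 and 4 were below every WB array there and below the minimum intensity of 20, the others within the WB range (log2 fold change -0.41, SE 0.24, adjusted p = 0.38). Bcl3-/- arrays gave Npc1 values of 72.9, 82.4, 87.4 and 57.1 in WB and 107, 104, 115 and 102 in HU mice, apart but not called (log2 fold change 0.53, SE 0.24, adjusted p = 0.15). The wild type response minus that of Nfkb1-/- was -1.54 (SE 0.34, adjusted p = 0.055), just short of the threshold. That difference passed it with the filter of the study (adjusted p = 0.026), with array weights (adjusted p = 0.00086), after quantile normalization again within each run (adjusted p = 0.039) and without the 3 arrays far from their groups (adjusted p = 0.042). Npc2, its soluble partner, gave log2 changes of 0.03 (SE 0.09, adjusted p = 0.92), 0.12 (SE 0.09, adjusted p = 0.48) and 0.15 (SE 0.09, adjusted p = 0.30) in wild type, Nfkb1-/- and Bcl3-/- muscle.

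Lamp2, a major glycoprotein of the lysosomal membrane that also serves chaperone-mediated autophagy through one of its splice forms, rose by a different probe set in each genotype. For wild type mice 1434503_s_at read 249, 272, 218 and 202 in WB and 358, 281, 352 and 346 in HU mice (log2 fold change 0.51, SE 0.11, adjusted p = 0.0093). The HU arrays lay above the WB arrays, and the call was kept without any 1 array. For Nfkb1-/- mice 1416344_at read 62.4, 58.8, 72.4 and 64.5 in WB and 82.0, 103, 124 and 80.5 in HU mice, with no overlap and a call kept likewise (log2 fold change 0.58, SE 0.13, adjusted p = 0.0037). For Bcl3-/- mice 1416343_a_at read 86.8, 104, 138 and 76.6 in WB and 143, 154, 190.0 and 131 in HU mice (log2 fold change 0.63, SE 0.19, adjusted p = 0.035). Here 1 WB array lay within the HU range, and the call was lost without any 1 of HU arrays 1, 2 and 3 and WB arrays 1, 2 and 4 (log2 fold change 0.51 to 0.66, adjusted p 0.057 to 0.12). It was also lost in a fit within its own run, in a fit of the groups compared and without the 3 arrays far from their groups (adjusted p 0.054 to 0.068). Of the 12 changes of Lamp2 (4 probe sets in 3 genotypes) all 12 were positive and 3 were called. The fourth probe set, 1428094_at, did not overlap between WB and HU in any genotype and was not called: 324, 348, 321 and 328 against 373, 363, 407 and 424 in wild type (log2 fold change 0.24, SE 0.08, adjusted p = 0.067), and 0.22 (SE 0.08, adjusted p = 0.059) and 0.14 (SE 0.08, adjusted p = 0.24) in Nfkb1-/- and Bcl3-/- muscle. No probe set of Lamp2 passed the test of a difference between genotypes. Which splice form each probe set reads is not given in the sources used here. A probe set ending in _s_at or _x_at can hold probes that also match other transcripts, which touches 9 tested members: 1434503_s_at here, 1416419_s_at of Gabarapl1, 3 probe sets of Becn1, 2 of Ctsz, 1 of Neu1 and 1 of Atg5.

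The other membrane and lipid genes were not called. Lamp1, the companion of Lamp2, gave log2 changes of 0.17 (SE 0.07, adjusted p = 0.23), 0.22 (SE 0.07, adjusted p = 0.064) and 0.14 (SE 0.07, adjusted p = 0.25) in wild type, Nfkb1-/- and Bcl3-/- muscle. Laptm4a, a transmembrane protein of lysosomes, gave log2 changes of 0.03 (SE 0.08, adjusted p = 0.90), -0.19 (SE 0.08, adjusted p = 0.11) and -0.04 (SE 0.08, adjusted p = 0.80). Psap, the precursor of the saposins that help to digest sphingolipids, gave log2 changes of -0.14 (SE 0.11, adjusted p = 0.57), 0.10 (SE 0.11, adjusted p = 0.63) and -0.26 (SE 0.11, adjusted p = 0.13).

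**Figure D3:**
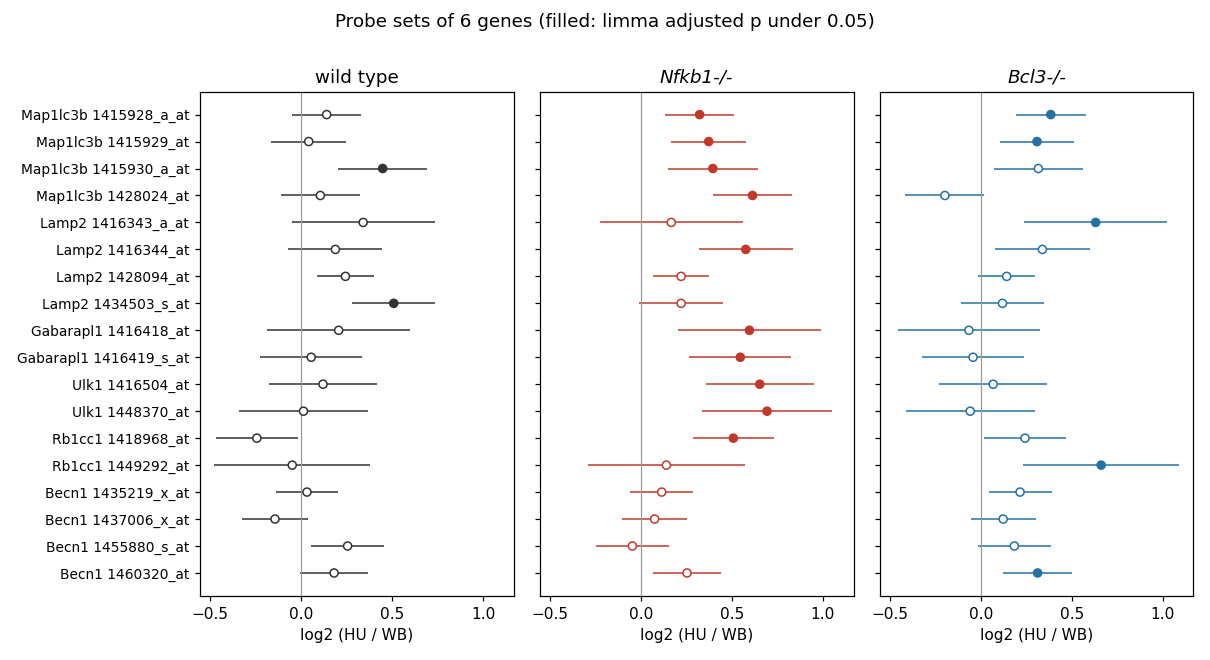
Log2 change with unloading (x axis) of every tested probe set of 6 genes with several probe sets, in wild type, Nfkb1-/- and Bcl3-/- muscle, with 95% confidence intervals from limma; filled points are calls. Map1lc3b, Gabarapl1 and Ulk1 are filled throughout in Nfkb1-/- muscle, where 1428024_at of Map1lc3b lies below the minimum intensity, whereas each panel has a different filled probe set of Lamp2.

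Of the 13 hydrolase genes, 1 was higher in wild type, 1 higher and 1 lower in Nfkb1-/-, and 2 lower in Bcl3-/- muscle. Of all genes 2.18% were higher in wild type, 5.22% higher and 7.02% lower in Nfkb1-/-, and 2.99% lower in Bcl3-/- muscle. Ctsl, a cysteine cathepsin long tied to muscle wasting and one of the genes the study chose from these arrays, gave the rises. It read 415, 423, 400.4 and 464 in WB and 723, 485, 692 and 636 in HU wild type mice, with the groups apart (log2 fold change 0.56, SE 0.12, adjusted p = 0.0075). Nfkb1-/- arrays read 425, 372, 448 and 441 in WB and 519, 759, 607 and 642 in HU mice, also apart (log2 fold change 0.57, SE 0.12, adjusted p = 0.0023). Both calls were kept without any 1 array, and the difference between these responses was -0.01 (95% confidence interval -0.36 to 0.33, adjusted p = 0.98). On Bcl3-/- arrays Ctsl read 1681, 1822, 1850.4 and 1569 in WB and 1937, 2232, 2122 and 1813 in HU mice; HU array 4 lay within the WB range and the change was 0.23 (95% confidence interval -0.02 to 0.47, adjusted p = 0.23). The wild type response minus that of Bcl3-/- was 0.33 (95% confidence interval -0.01 to 0.68, adjusted p = 0.38).

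Ctsh, a cathepsin with aminopeptidase activity, fell in both knockouts. Nfkb1-/- arrays read 26.5, 25.1, 24.0 and 27.3 in WB and 16.4, 10.4, 17.9 and 24.0 in HU mice (log2 fold change -0.64, SE 0.18, adjusted p = 0.021). The HU arrays lay below the WB arrays, array 4 by little, and the call was lost without any 1 of HU array 2 and WB arrays 1 and 4 (log2 fold change -0.63 to -0.42, adjusted p 0.055 to 0.10). That call also ended in a fit of the groups compared and with 16 added (adjusted p 0.059 to 0.087). Bcl3-/- arrays read 189.9, 170.0, 189 and 134 in WB and 99.5, 89.2, 115 and 132 in HU mice, again without overlap (log2 fold change -0.65, SE 0.18, adjusted p = 0.024). This call was lost without any 1 of HU arrays 1 and 2 and WB array 1 (log2 fold change -0.61 to -0.56, adjusted p 0.063 to 0.074). Wild type arrays read 24.2, 33.7, 30.9 and 24.2 in WB and 31.8, 30.3, 25.8 and 23.8 in HU mice, interleaved (log2 fold change -0.01, SE 0.18, adjusted p = 0.98). Wild type minus knockout, the difference of responses was 0.63 (SE 0.26, adjusted p = 0.31) for Nfkb1-/- and 0.64 (SE 0.26, adjusted p = 0.27) for Bcl3-/-, neither past the threshold.

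Ctsk, the collagen-degrading cathepsin known from osteoclasts and fibroblasts, fell in Bcl3-/- muscle. It read 378, 335, 423 and 290.0 in WB and 195, 165, 196 and 271 in HU mice (log2 fold change -0.80, SE 0.16, adjusted p = 0.0035). Every HU array lay below every WB array, and the call was kept without any 1 array. Wild type arrays gave Ctsk values of 34.1, 29.1, 33.2 and 25.7 in WB and 24.2, 28.6, 26.8 and 21.3 in HU mice, with overlap. Nfkb1-/- arrays read 31.1, 33.1, 24.7 and 30.0 in WB and 25.5, 17.6, 21.5 and 31.5 in HU mice, again with overlap. Those changes were -0.28 (SE 0.16, adjusted p = 0.40) and -0.33 (SE 0.16, adjusted p = 0.21), and the wild type response minus that of Bcl3-/- was 0.52 (SE 0.23, adjusted p = 0.32). Fibroblast markers moved with it. Beside 2.99%, 7.02% and 1.75% of all genes lower in Bcl3-/-, Nfkb1-/- and wild type muscle, 7, 7 and 2 of the 11 measured markers were lower. None of these markers was higher. Their summed intensity ran from 35206 to 48868 in WB and 22579.5 to 32912 in HU Bcl3-/- mice, from 7556 to 9010.4 and 5188 to 6370.3 in wild type, and from 7511 to 8978 and 3268 to 6604 in Nfkb1-/- mice. All 11 were above 20 on every array, and their part in the fall of Ctsk was not tested.

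Ctss, a cathepsin of antigen-presenting cells and the other cathepsin the study chose from these arrays, was the 1 member that differed between WB groups. It read 19.5, 21.3, 22.0 and 17.0 in wild type and 37.0, 33.8, 41.6 and 50.2 in Nfkb1-/- WB mice, or 19.9 ± 2.24 and 40.6 ± 7.12 (mean ± SD, n = 4). Wild type WB arrays 1 and 4 lay below the minimum intensity of 20, and the other wild type WB arrays just above it. The groups were apart by a 2.02-fold difference, Nfkb1-/- over wild type (log2 fold change 1.02, SE 0.20, adjusted p = 0.0080), which makes 1 of 61 member probe sets (1.64%), beside 0.902% of all (0.57% higher, 0.332% lower; 0.856% of genes). Between WB groups the arrays did not overlap for 1 member probe set in each direction, Ctss and Becn1 1435219_x_at, beside 3.33% and 3.31% of all. The call of Ctss was lost without Nfkb1-/- WB array 4 (log2 fold change 0.91, adjusted p = 0.051), and with 16 added to every intensity the limma adjusted p was 0.075. Unloaded wild type arrays read 40.6, 37.5, 26.3 and 24.2, all above the WB arrays but not called (log2 fold change 0.66, SE 0.20, adjusted p = 0.063). Unloaded Nfkb1-/- arrays read 41.8, 40.6, 35.7 and 82.4, 1 of them far above the others (log2 fold change 0.23, SE 0.20, adjusted p = 0.54). On Bcl3-/- arrays Ctss read 199, 245, 212 and 178 in WB and 204, 163, 206 and 174 in HU mice, with overlap (log2 fold change -0.16, SE 0.20, adjusted p = 0.67). The wild type response minus that of Bcl3-/- was 0.82 (SE 0.28, adjusted p = 0.18).

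Macrophage markers were read beside Ctss. Of 21 macrophage marker genes tested, 20 had a positive difference between the WB groups, Nfkb1-/- over wild type, with a median on the log2 scale of 0.33. By limma 0 of the 21 genes and 1 of their 27 probe sets were called, and 11 of the 27 probe sets had an unadjusted p under 0.05 there, all in the higher direction (40.7%, beside 7.85% of all probe sets, 4.17% higher and 3.67% lower). The summed intensity of the listed markers, 22 with a probe set, ran from 597 to 782 in WB wild type, 726 to 1185 in HU wild type, 781 to 1000.3 in WB Nfkb1-/- and 766 to 1390.0 in HU Nfkb1-/- mice. On single arrays 8 to 10 of the 22 were above 20 in WB wild type and 11 to 14 in WB Nfkb1-/- mice. The part of these markers in the difference of Ctss was not tested. Ctss and Ctsk are neighbouring genes on chromosome 3, which also carries Nfkb1, and Ctsk was not called between the WB groups (log2 fold change -0.04, SE 0.16, adjusted p = 0.99). Strain background and deletion go together in this contrast and cannot be told apart.

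**Figure D4:**
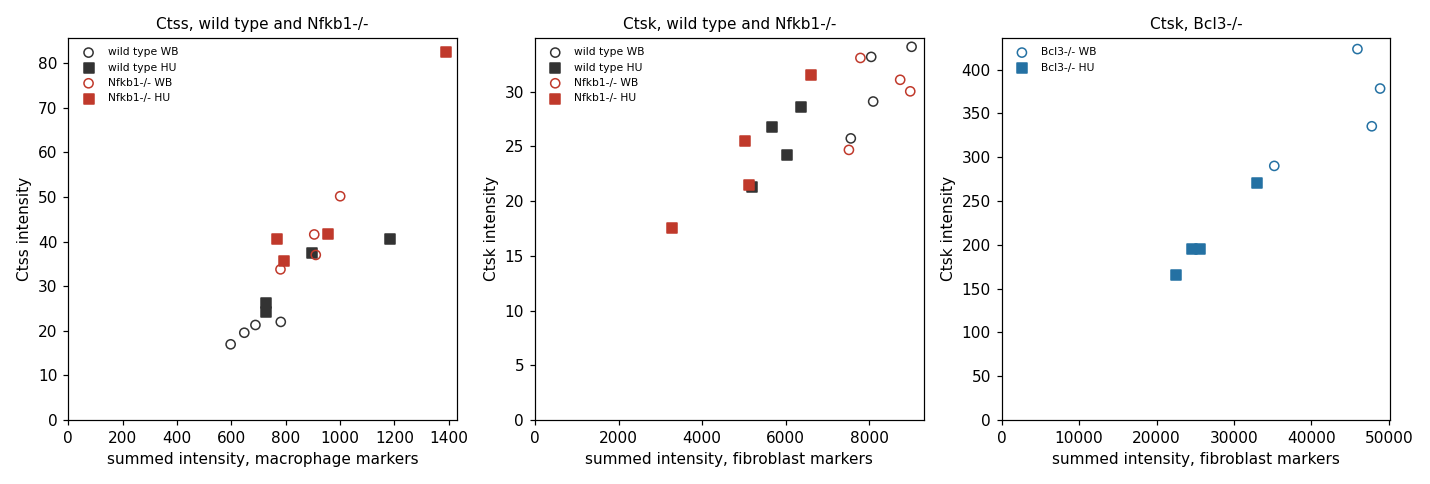
Intensity of Ctss against the summed intensity of macrophage markers on the wild type and Nfkb1-/- arrays (left), and of Ctsk against that of fibroblast markers on the same arrays (middle) and on the Bcl3-/- arrays (right); each point is 1 array, open circles WB and filled squares HU. The 4 WB wild type arrays are lowest in Ctss (17.0 to 22.0), and the Bcl3-/- HU arrays are lowest in both Ctsk and fibroblast markers.

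Other hydrolases held no call. Ctsb, a widely expressed cysteine cathepsin, was measured by 4 probe sets whose changes lay between -0.30 and 0.09 over the 3 genotypes. Ctsd, the main aspartic protease of the lysosome, gave log2 changes of -0.05 (SE 0.13, adjusted p = 0.89), -0.19 (SE 0.13, adjusted p = 0.41) and -0.22 (SE 0.13, adjusted p = 0.29) in wild type, Nfkb1-/- and Bcl3-/- muscle. Ctsz gave log2 changes of 0.22 (SE 0.12, adjusted p = 0.36), -0.10 (SE 0.12, adjusted p = 0.68) and 0.32 (SE 0.12, adjusted p = 0.085), and Hexa, a subunit of β-hexosaminidase, -0.13 (SE 0.09, adjusted p = 0.51), -0.11 (SE 0.09, adjusted p = 0.55) and -0.12 (SE 0.09, adjusted p = 0.42). Gla and all 3 probe sets of Neu1 stayed under 16 on every wild type and Nfkb1-/- array, below the minimum intensity of 20. Tfeb, the transcription factor of the lysosomal genes, was read by 1 probe set. Its arrays did not overlap in Nfkb1-/- muscle, at 0.34 (SE 0.15, adjusted p = 0.14), and it was not called there, in wild type (log2 fold change -0.06, SE 0.15, adjusted p = 0.88) or in Bcl3-/- muscle (log2 fold change -0.16, SE 0.15, adjusted p = 0.53).

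Between genotypes no member response of Bcl3-/- muscle differed from wild type by limma (0 of 61 probe sets, beside 1.07% of all, 0.264% higher and 0.803% lower, and 1.17% of all genes, 0.306% higher and 0.865% lower). Of the 61, 9 had an unadjusted p under 0.05, 4 with a positive and 5 with a negative value of wild type minus Bcl3-/- (14.8%, beside 13.6% of all probe sets, 4.84% positive and 8.74% negative, a share near the background). For wild type against Nfkb1-/- responses, 11 of 61 had an unadjusted p under 0.05 (18%, beside 12.3% of all, 7.32% positive and 4.95% negative) and 1, that of Rb1cc1, passed the adjustment. A rise called in Nfkb1-/- and not in wild type muscle, as for Ulk1, Gabarapl1, Bnip3 and Npc1, is therefore not shown to differ between these genotypes by this fit; that of Npc1 passed under the alternatives given above.

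A further 140 genes of the same pathways were listed, of which 113 were measured: subunits of the proton pump (V-ATPase), other lysosomal enzymes and membrane proteins, other autophagy genes and regulating factors. Counted as the members were, 1 was higher and 3 lower in wild type, 4 higher and 7 lower in Nfkb1-/-, and 7 higher and 2 lower in Bcl3-/- muscle. Of all genes 2.18% were higher and 1.75% lower in wild type, 5.22% and 7.02% in Nfkb1-/-, and 7.5% and 2.99% in Bcl3-/- muscle. The counts of the 113 lie near or below these shares, so the genes named next are examples and not a result about the pathway. The median log2 changes were 0.02, 0.01 and 0.08. In wild type muscle Stbd1, a glycogen receptor of autophagy, rose by 0.82, while the co-chaperone Bag3 (-0.54), the lysosomal thioesterase Ppt1 (-0.52) and Laptm4b (-0.33) fell. In Nfkb1-/- muscle Atg13 (0.49), a subunit of the Ulk1 complex, Pink1 (0.48), the kinase of mitochondrial autophagy, Atg2b (0.47) and Atg14 (0.46) rose. The 6 largest falls there were those of Fundc1 (-0.56), a receptor on mitochondria, Ppt1 (-0.52), Trp53inp2 (-0.40), Siae (-0.39), Lamtor4 (-0.37) and Laptm4b (-0.32). In Bcl3-/- muscle the 6 largest rises were those of Stbd1 (0.51), Gnptab (0.44), Atg14 (0.39), Mfsd8 (0.38), Tsc1 (0.38) and Ulk2 (0.37), and Bag3 (-0.40) and Lamtor1 (-0.35) fell. No V-ATPase gene was called by that probe set in any genotype (0 of 16 measured), although 2 other V-ATPase probe sets were lower in Bcl3-/- muscle. Between WB groups and between responses 0 of the 113 genes were called by limma; 10 of their 215 probe sets had an unadjusted p under 0.05 between WB groups, 21 between the wild type and Nfkb1-/- responses and 34 between the wild type and Bcl3-/- responses. Those are 4.65%, 9.77% and 15.8%, beside the 7.85%, 12.3% and 13.6% of all probe sets given above, so none stands far above its background.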

How the data were processed

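RNA of 24 mice was measured on Affymetrix mouse genome arrays after 2 rounds of cDNA amplification, 4 in each of 6 groups taken from the sample labels. The authors read the scanner files (GCOS) into GenePattern, summarised probe sets by RMA with quantile normalization and deposited linear intensities in 1 table; the array files name no genome build. Gene names came from the platform annotation, which lists 20380 probe sets with 1 gene, 691 with several and leaves 1555 out; promoter sequences and chromosomes came from RefSeq tables (GRCm38.p6).

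Probe sets above an intensity of 20 on at least 4 arrays (19294 of 22626 without controls) were fitted as log2 intensity with limma 3.58.1 in R 4.3.3, 1 mean per group over all 24 arrays (18 residual and 5.89 prior degrees of freedom), with two-sided tests and Benjamini-Hochberg adjustment over all 19294 probe sets. Contrasts were unloading within each genotype (HU minus WB), WB Nfkb1-/- minus WB wild type, and the wild type response minus each knockout response. A call is an adjusted p under 0.05. The fit was checked on simulated data. No 2 arrays were identical.

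The members and all gene lists were chosen with earlier results of these data known. All members are accounted for by all their probe sets; called genes and the Atg8 family are given by array, and of other pathway genes up to 6 called per contrast and direction. Of several probe sets, the one with the highest mean over the 24 arrays stood for its gene in counts. Alternatives were other filters, fits of fewer arrays, array weights, renormalization, an added 16, the methods' t-test, a replicate block and each array left out. The marker lists were those of macrophages, neutrophils, fibroblasts, endothelium, tendon, satellite cells and muscle fibres.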

Additional observations from a re-analysis of the deposited data

Results flagged for a closer look

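For 8 of 204 combinations of a member gene and a group, 1 of the 4 arrays stood apart from the other 3 by Dixon's test at the 95% level, which chance alone would do for about 1 in 20 groups. Ctsz read 92.1 on wild type WB array 4, beside 123 to 125 on the others. Laptm4a read 6956 on Bcl3-/- HU array 4, beside 6235 to 6292, and 1385 on wild type HU array 3, beside 1440 to 1449. Npc2 read 904 on Bcl3-/- WB array 4, beside 1080 to 1105. Gabarap read 272 on wild type HU array 2, beside 365 to 381. Gabarapl2 read 367 on Nfkb1-/- HU array 2, beside 278 to 290, and 227 on wild type WB array 4, beside 264 to 270. Tfeb read 49.0 on Nfkb1-/- WB array 4, beside 56.1 to 57.0. The responses of Rb1cc1 to unloading differed between wild type and Nfkb1-/- muscle by -0.75 on the log2 scale, as tested above by limma.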

How the results depend on the processing

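No direction of a called value turned under any alternative. Of the member probe sets, 4 were called with unloading for wild type, 15 for Nfkb1-/- and 8 for Bcl3-/- mice, 1 between WB groups, 1 between wild type and Nfkb1-/- responses and 0 between wild type and Bcl3-/- responses. For wild type muscle the count was 0 in a fit of the groups compared and 8 with array weights. The methods' t-test gave 0 there with q-values or Benjamini-Hochberg adjustment. With the filter of the study that t-test gave 3 (q-values) and 0 (Benjamini-Hochberg). The wild type count was 1 without the 3 arrays far from their groups, and 2 to 6 with 1 array left out. For Nfkb1-/- muscle the methods' t-test gave 4 (q-values) and 3 (Benjamini-Hochberg), or 7 and 4 with the filter of the study, and leaving out 1 array gave 8 to 16. For Bcl3-/- muscle the count was 5 with the filter of the study, 5 in a fit within its own arrays or of the groups compared, 15 with 16 added to the intensities, 3 and 0 by the methods' t-test (q-values and Benjamini-Hochberg), 4 and 1 by it with the filter of the study, and 2 to 8 with 1 array left out. Between WB groups it was 0 with 16 added and 0 to 1 with 1 array left out. By the methods' t-test with either adjustment that count was 0, and 1 when the filter of the study was used as well. Between wild type and Nfkb1-/- responses it was 2 with the filter of the study, 0 within the run, 0 in a fit of the groups compared, 3 with array weights, 2 after quantile normalization again, and 0 to 2 with 1 array left out. Between wild type and Bcl3-/- responses it was 1 with array weights. A fit within a run could not be made, as these genotypes lie on different scales. Counting a gene by any of its probe sets gave 4 genes in place of 2 in wild type and 7 in place of 4 in Bcl3-/- muscle. Among the values of single member probe sets, 107 called values fell short of the threshold and 55 others passed it under these settings, and 86 and 16 did with 1 array left out, all with their direction kept. The cause of these shifts was not tested. The t-test with the filter of the study and the fit without 3 arrays were chosen after seeing the data.

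Replicate numbers did not pair the arrays (2 of 16 correlations of deviations were above 0.1), and with the replicate block the counts were 4, 15, 8, 1, 1 and 0, in the order above. Of the calls themselves, the block ended that of Map1lc3a 1451290_at in Bcl3-/- muscle (adjusted p = 0.056) and added that of Lamp2 1416344_at there (adjusted p = 0.044), both by limma, and changed no other call of a member. Probe sets near or below an intensity of 20 on the wild type and Nfkb1-/- arrays limit what can be seen there.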

Other observations

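Other cell types were read beside the members through marker lists. Neutrophil markers were higher with unloading in 3 of 8 genes in Nfkb1-/- and 4 of 8 in Bcl3-/- muscle, and in 0 of 8 in wild type muscle. Of all genes 5.22%, 7.5% and 2.18% were higher in that order. The summed intensity of the neutrophil markers was apart between WB and HU arrays in every genotype. It ran from 35.5 to 42.1 in WB and 48.1 to 119.8 in HU wild type, from 38.8 to 51.9 and 86.0 to 162 in Nfkb1-/- and from 265 to 294 and 434 to 1055 in Bcl3-/- mice. Tendon markers were lower in 2, 4 and 3 of 7 genes in wild type, Nfkb1-/- and Bcl3-/- muscle, beside 1.75%, 7.02% and 2.99% of all genes. Endothelial markers were called, higher, in 2 of 10 genes in Bcl3-/- muscle and in 0 of 10 in the other genotypes. Of 9 satellite cell and regeneration markers, 1 was higher in Bcl3-/- muscle. The share of all genes higher in that muscle, 7.5%, stands beside both of these counts. The wild type response minus that of Bcl3-/- was called by limma in 1 of 8 neutrophil genes, in the negative direction, beside 0.865% of all genes. Minus that of Nfkb1-/- it was called in 0 of 8. The tendon, endothelial and satellite cell lists had 0 genes called in both comparisons. A list as a whole was not tested.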
